A study of Mus musculus with 17 samples.

Results

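Atm and its partners in double-strand break signalling are described here across 4 genotypes of postnatal day 3 mouse cerebellum, as 8 genes chosen by name: the kinases Atm, Chek2 and Prkdc, the histone H2afx with the mediators Mdc1 and Trp53bp1, and the ubiquitin ligases Rnf8 and Rnf168. They are 8 of 31438 genes to which the transcripts of the deposited count tables were summed. Atr is the kinase that responds to stalled replication forks, and the series compared cerebella in which Atr was deleted with controls that kept it, in mice in which cell death was blocked either by loss of Bax and Bak or by loss of p53. Atr-Bax-Bak cerebella carried Math1-Cre with Bax-loxP/loxP, the germline null genotype Bak--/- and Atr-loxP/loxP (n = 5). Their controls, the Bax-Bak controls, carried Math1-Cre, Bax-loxP/loxP and Bak--/- alone (n = 4). Atr-p53 cerebella carried Math1-Cre, Atr-loxP/loxP and p53-loxP/loxP (n = 5, of which 4 were used), and the p53 controls carried Math1-Cre and p53-loxP/loxP (n = 3). All mice were C57BL/6 and all carried Cre, so no group is wild type. Math1 drives Cre in granule neuron progenitors and a few other rhombic lip lineages, whereas the RNA came from whole cerebella stripped of meninges, so cells that never made Cre kept Atr, Bax and p53 in every group.

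A double-strand break is bound by the Mre11-Rad50-Nbn complex, which activates Atm, and Atm phosphorylates the histone variant H2AX on the chromatin around the break. Mdc1 reads that mark and brings in Rnf8, whose ubiquitin signal is extended by Rnf168 and recruits 53BP1, the product of Trp53bp1. Atm also activates the checkpoint kinase Chk2, encoded by Chek2. DNA-PKcs, encoded by Prkdc, is a kinase that acts with Ku in the joining of broken ends. Loss of ATM in people causes ataxia-telangiectasia, in which the cerebellum degenerates. All of these steps act on proteins, and only RNA was measured here.

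The 16 libraries used held 42987953 to 100659645 estimated counts each. A further Atr-p53 library (replicate 3) held 13601 counts and was left out. Bak1 was at 0.283 to 0.607 CPM (counts scaled to library size) in Atr-Bax-Bak and 0.237 to 0.563 CPM in Bax-Bak libraries, against 32.6 to 41.6 CPM in Atr-p53 and 37.4 to 41.4 CPM in p53 libraries, so the Bak labels of the libraries hold. Atr was not distinguishable by its summed counts: it had 35.8 to 43.5 CPM in Atr-Bax-Bak against 38.4 to 48.0 CPM in Bax-Bak controls, and 33.7 to 40.2 CPM in Atr-p53 against 36.3 to 38.3 CPM in p53 controls. A sum over the whole gene also counts RNA outside the deleted exons and RNA of cells without Cre, so it does not check the Atr deletion. Granule progenitor markers (10 of 10 detected in each library) summed to 1865 to 2121 CPM in Atr-Bax-Bak against 2499 to 3028 CPM in Bax-Bak cerebella, and to 1691 to 2190 CPM in Atr-p53 against 2185 to 2360 CPM in p53 cerebella. The labels do not state that the libraries came from separate animals, so p-values measure the spread between these samples.

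Without Bax and Bak, 6 of the 8 genes were lower in Atr-deleted cerebella than in controls and none was higher: H2afx, Rnf168, Atm, Mdc1, Chek2 and, by a small margin, Trp53bp1. H2afx showed the largest difference of the 8, 33.8% below its controls, and Rnf168, Atm, Mdc1 and Chek2 lay 24.1% to 29.4% below theirs. Prkdc and Rnf8 did not pass the test. All 5 Atr-Bax-Bak libraries carry the number series 1836 in their names and their controls 1842 or 100019, a label whose meaning is not stated and which cannot be told apart from Atr deletion here. Against the 2 controls of series 1842 alone 6 of the 8 genes were lower, and against the 2 of series 100019 alone 5 were. Lower calls covered 22.0% of the 17405 genes tested and higher calls 22.5%, and in 21.1% of genes every Atr-deleted library lay below every control, which was so for 6 of the 8 members. The members' median log2 fold change was -0.42, against 0.04 over all genes tested. Without p53, none of the 8 passed the test by edgeR, DESeq2 or limma-voom, none had an unadjusted p below 0.05, and every member's groups overlapped, where calls in either direction covered 0.0461% of 17348 genes and 4.62% of genes had every Atr-deleted library below every control. All folds and adjusted p-values given below for genes are from edgeR's quasi-likelihood test (Benjamini-Hochberg adjustment over all genes tested). In whole tissue, fewer cells of a type and less RNA per cell cannot be told apart.

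**Figure D1:**
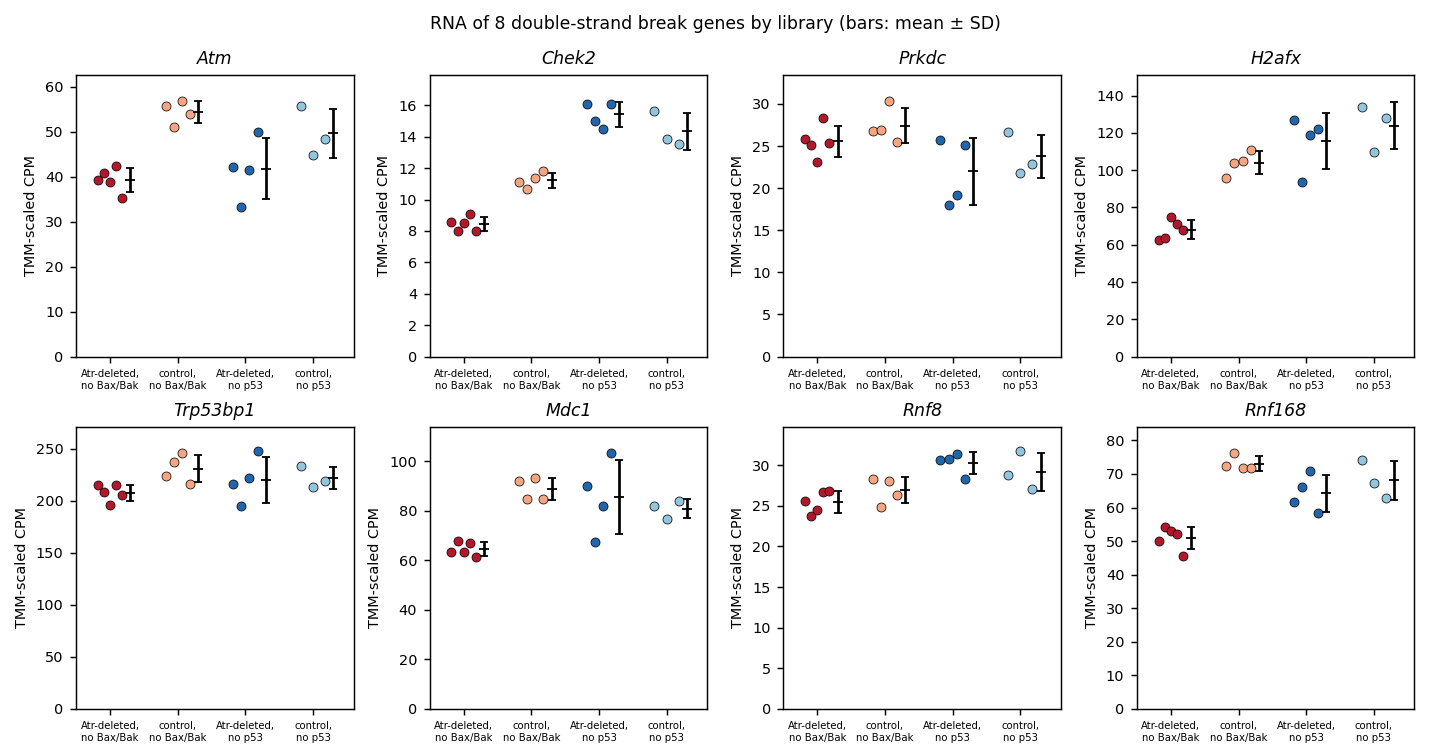
Level of each of the 8 genes in each library (points, TMM-scaled CPM from 0) in Atr-Bax-Bak, Bax-Bak control, Atr-p53 and p53 control cerebella, with mean ± SD (n = 5, 4, 4 and 3). Red points lie below orange points without overlap in 6 panels, and Prkdc and Rnf8 are the exceptions; dark and light blue points overlap in all 8.

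Atm (chromosome 9, 53439149 to 53536740, GRCm38, minus strand) encodes the kinase that starts the response. Atm had 39.2, 40.8, 38.8, 42.4 and 35.2 CPM in the 5 Atr-Bax-Bak libraries, against 55.7, 51.1, 56.8 and 53.8 CPM in the 4 Bax-Bak controls. The highest Atr-deleted library stayed below the lowest control, and the log2 fold change was -0.45 ± 0.056 (SE, adjusted p = 9.38e-05). Atm had 42.2, 33.3, 41.5 and 49.96 CPM in Atr-p53 libraries, against 55.6, 44.8 and 48.3 CPM in p53 controls. These groups overlapped, with a log2 fold change of -0.24 ± 0.14 (SE, adjusted p = 0.825) and a 95% interval of -0.51 to 0.035, which includes the value found without Bax and Bak.

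Chek2 (chromosome 5, 110839979 to 110874145, plus strand) encodes Chk2, the kinase that Atm activates and that passes the signal to p53 and Cdc25. Chek2 had 8.54, 7.99, 8.53, 9.07 and 7.99 CPM in Atr-Bax-Bak libraries, against 11.1, 10.7, 11.4 and 11.8 CPM in Bax-Bak controls. No library overlapped with the other group, and the log2 fold change was -0.40 ± 0.073 (SE, adjusted p = 0.00119). In the p53-deleted background Chek2 stood higher in both groups, at 16.1, 15.0, 14.5 and 16.1 CPM in Atr-p53 libraries, against 15.7, 13.9 and 13.5 CPM in p53 controls. Its log2 fold change there was 0.11 ± 0.10 (SE, adjusted p = 0.859), with overlapping groups.

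Prkdc (chromosome 16, 15637866 to 15842235, plus strand) encodes the end-joining kinase DNA-PKcs. Prkdc had 25.8, 25.2, 23.1, 28.3 and 25.3 CPM in Atr-Bax-Bak libraries, against 26.8, 26.9, 30.4 and 25.5 CPM in Bax-Bak controls. The groups overlapped and the log2 fold change of -0.085 ± 0.066 (SE) did not pass the test (adjusted p = 0.322, 95% interval -0.22 to 0.045). Prkdc had 25.7, 18.02, 19.2 and 25.2 CPM in Atr-p53 libraries, against 26.7, 21.8 and 22.8 CPM in p53 controls, again with overlap (log2 fold change -0.099, adjusted p = 0.897).

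H2afx (chromosome 9, 44334694 to 44336077, plus strand) encodes the histone variant H2AX, whose phosphorylated form marks chromatin at a break. H2afx had 62.8, 63.8, 74.9, 70.9 and 68.0 CPM in Atr-Bax-Bak libraries, against 96.0, 104.0, 105.1 and 110.8 CPM in Bax-Bak controls. The groups were far apart relative to their spread, with a log2 fold change of -0.59 ± 0.061 (SE, adjusted p = 2.90e-05). H2afx had 127.2, 93.6, 118.8 and 122.3 CPM in Atr-p53 libraries, against 134.0, 110.0 and 127.9 CPM in p53 controls, and these overlapped (log2 fold change -0.093, adjusted p = 0.890). Of the 31-base words in H2afx transcripts, 11.2% also occur in transcripts of other genes, chiefly replication-dependent H2A histones. The division of reads between these genes is therefore uncertain, to an extent that was not measured.

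Mdc1 (chromosome 17, 35841515 to 35859670, plus strand) encodes the scaffold that binds phosphorylated H2AX. Mdc1 had 63.2, 67.7, 63.3, 67.1 and 61.5 CPM in Atr-Bax-Bak libraries, against 91.9, 84.9, 93.0 and 84.9 CPM in Bax-Bak controls. No library overlapped with the other group, and the log2 fold change was -0.44 ± 0.045 (SE, adjusted p = 2.83e-05). Mdc1 had 89.9, 67.4, 81.7 and 103.3 CPM in Atr-p53 libraries, against 82.0, 76.5 and 83.9 CPM in p53 controls. The Atr-p53 libraries lay on both sides of the controls (log2 fold change 0.093, adjusted p = 0.896).

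Trp53bp1 (chromosome 2, 121193281 to 121271407, minus strand) encodes 53BP1, which protects broken ends from resection. Trp53bp1 had 214.7, 207.9, 196.1, 215.0 and 205.0 CPM in Atr-Bax-Bak libraries, against 224.1, 236.7, 245.8 and 216.5 CPM in Bax-Bak controls. The groups did not overlap, but the highest Atr-deleted library and the lowest control were close, and the log2 fold change was -0.13 ± 0.045 (SE, adjusted p = 0.0317). That call was lost without Bax-Bak replicate 3 (adjusted p = 0.0872), without Atr-Bax-Bak replicate 3 (adjusted p = 0.0730) or replicate 5 (adjusted p = 0.0647), and with upper-quartile scaling (log2 fold change -0.11, adjusted p = 0.0647), all by edgeR. Trp53bp1 had 216.2, 194.5, 222.1 and 248.2 CPM in Atr-p53 libraries, against 233.5, 213.2 and 218.6 CPM in p53 controls, with overlap (log2 fold change 0.0002, adjusted p = 0.9997, 95% interval -0.20 to 0.20). Of its annotated span, 5490 bases overlap Tubgcp4 on the other strand, and 14.4% of its 31-base words are shared, chiefly with that gene.

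Rnf8 (chromosome 17, 29614790 to 29644991, plus strand) encodes the ligase that Mdc1 brings to breaks. Rnf8 had 25.6, 23.7, 24.5, 26.7 and 26.9 CPM in Atr-Bax-Bak libraries, against 28.3, 24.9, 28.1 and 26.4 CPM in Bax-Bak controls. The groups overlapped, and the log2 fold change of -0.062 ± 0.058 (SE) did not pass the test (adjusted p = 0.416). Rnf8 had 30.7, 30.8, 31.3 and 28.3 CPM in Atr-p53 libraries, against 28.8, 31.8 and 27.1 CPM in p53 controls, with overlap (log2 fold change 0.062, adjusted p = 0.896). Of its 31-base words, 17.0% are shared, chiefly with the read-through gene Gm28043 on the same strand, so the division of reads between these genes is uncertain.

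Rnf168 (chromosome 16, 32277459 to 32301434, plus strand) encodes the ligase that ubiquitinates H2A so that 53BP1 can bind. Rnf168 had 49.9, 54.2, 52.9, 52.1 and 45.7 CPM in Atr-Bax-Bak libraries, against 72.5, 76.3, 71.8 and 71.6 CPM in Bax-Bak controls. The groups were well apart, with a log2 fold change of -0.50 ± 0.052 (SE, adjusted p = 3.08e-05). Rnf168 had 61.5, 66.0, 70.8 and 58.4 CPM in Atr-p53 libraries, against 74.1, 67.4 and 62.7 CPM in p53 controls. These overlapped (log2 fold change -0.075, adjusted p = 0.888, 95% interval -0.26 to 0.11). The value found without Bax and Bak lies outside that interval but has its own error, and the difference is tested below.

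Whether the effect of Atr deletion differed between the backgrounds was tested as an interaction over all 16 libraries. It was more negative without Bax and Bak for 4 of the 8 genes, against 8.09% of the 18166 genes tested, and more positive for none, against 8.08%. The difference in log2 fold change was -0.54 ± 0.13 for Mdc1 (SE, adjusted p = 0.0122), -0.52 ± 0.11 for Chek2 (adjusted p = 0.00582), -0.51 ± 0.13 for H2afx (adjusted p = 0.0148) and -0.43 ± 0.10 for Rnf168 (adjusted p = 0.00935). For H2afx the call was lost without p53 replicate 2, at -0.43 with adjusted p = 0.0549. The difference did not pass the test for Atm (-0.22, 95% interval -0.50 to 0.062, adjusted p = 0.327), Trp53bp1 (-0.14, adjusted p = 0.365), Rnf8 (-0.13, adjusted p = 0.400) and Prkdc (0.0065, adjusted p = 0.988). The fall of Atm without Bax and Bak is therefore not shown to differ from its change without p53.

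**Figure D2:**
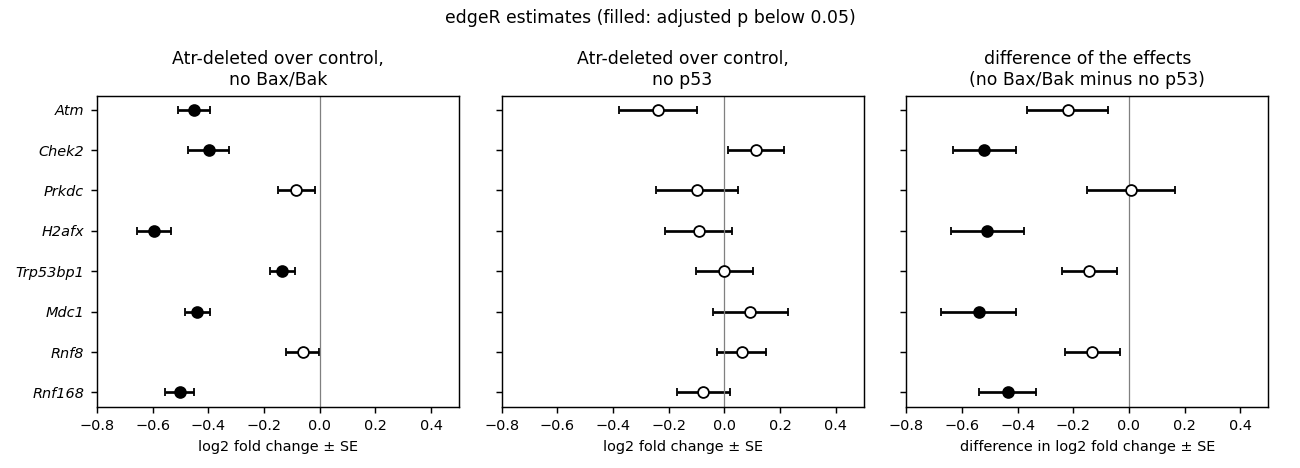
Log2 fold change ± SE of Atr-deleted over control cerebella for each gene without Bax and Bak (left) and without p53 (middle), and the difference of these effects (right). Filled points have an adjusted p below 0.05 in edgeR's quasi-likelihood test: 6 on the left, none in the middle and 4 on the right.

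Between the control genotypes, 1 of the 8 genes differed, Chek2. It was lower in Bax-Bak controls than in p53 controls, with a log2 fold change of -0.35 ± 0.084 (SE, adjusted p = 0.00957) and no overlap, where lower calls covered 9.3% of 18166 genes. H2afx followed with -0.25 ± 0.097 (SE, adjusted p = 0.0802), and it passed the test without Atr-p53 replicate 2, where edgeR gave an adjusted p of 0.0195. Mdc1 lay higher in each Bax-Bak control than in every p53 control, yet its log2 fold change of 0.13 did not pass the test (adjusted p = 0.379). Atm, Prkdc, Trp53bp1, Rnf8 and Rnf168 differed by -0.12 to 0.21 on the log2 scale, and none passed. These groups also lie in separate count tables and carry different number series in their names, which cannot be told apart from genotype.

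Per length, as length-scaled TPM, H2afx led in Atr-Bax-Bak cerebella at 114.0 ± 6.7 TPM, followed by Trp53bp1 at 95.6 ± 6.8, Rnf168 at 28.6 ± 1.5, Mdc1 at 22.7 ± 0.72, Rnf8 at 20.8 ± 1.4, Atm at 10.9 ± 1.2, Chek2 at 10.9 ± 0.51 and Prkdc at 4.71 ± 0.31 TPM (SD, n = 5). The order of levels in Bax-Bak controls was H2afx at 168.1 ± 8.8 TPM, Trp53bp1 at 101.8 ± 9.9, Rnf168 at 39.6 ± 0.92, Mdc1 at 29.7 ± 1.9, Rnf8 at 14.8 ± 3.1, Chek2 at 13.9 ± 1.3, Atm at 13.1 ± 0.34 and Prkdc at 4.88 ± 0.39 TPM (SD, n = 4). Rnf8, Chek2 and Atm did not differ beyond their spread, and the other neighbours in that order of the controls did not overlap. H2afx and Trp53bp1 led and Prkdc was last of the 8 in both groups. Rnf8 alone was higher per length in Atr-Bax-Bak libraries, at 18.7 to 22.6 TPM against 11.1 to 18.4 TPM in Bax-Bak controls, without overlap, whereas its CPM overlapped. The lowest Atr-deleted library and the highest control were close. TPM gives short transcripts more weight per count, and the retained-intron form Rnf8-202 has 862 bases against 5404 for the main form Rnf8-201. The controls differed in Rnf8-202 by number series, as described below, and the part of this form in the difference was not tested. H2afx lay above 94.3% of the genes tested by mean TPM in Bax-Bak controls, Trp53bp1 above 89.0% and Prkdc above 30.1%.

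The 46 annotated transcripts of the 8 genes were tested one by one where their counts allowed. Without Bax and Bak, 28 were tested, of which 8 were lower and 1 was higher, where 15.6% of all 51843 transcripts tested were called. Without p53, none of 27 was called, where 0.00957% of 52260 were. For Atm, Prkdc and Mdc1 a single protein-coding transcript held nearly all counts in each group, and H2afx has only 1. Trp53bp1, Rnf8 and Rnf168 divided theirs among several, and transcripts of 1 gene share most of their sequence, so the shares are estimates.

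Within Trp53bp1, transcripts moved in opposite directions without Bax and Bak. Trp53bp1-208, a protein-coding model of 3098 bases, held 7.25 ± 1.7% of the gene's counts in Atr-Bax-Bak and 14.1 ± 2.5% in Bax-Bak cerebella (SD, n = 5 and 4), and fell by 1.17 ± 0.16 on the log2 scale (SE, adjusted p = 0.00141 by edgeR over all transcripts). Trp53bp1-201, of 9405 bases, held 6.53 ± 1.5% in Atr-Bax-Bak and 2.74 ± 0.73% in Bax-Bak cerebella and was higher by 1.06 ± 0.22 (SE, adjusted p = 0.0111 by edgeR). The main form Trp53bp1-202 held 66.8% in Atr-Bax-Bak and 64.7% in Bax-Bak cerebella and did not pass the test (log2 fold change -0.16, edgeR adjusted p = 0.228).

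For Rnf8 the protein-coding transcript did fall. Rnf8-201, of 5404 bases, held 83.7 ± 1.9% of the gene's counts in Atr-Bax-Bak against 94.3 ± 4.3% in Bax-Bak cerebella (SD, n = 5 and 4), and its log2 fold change was -0.30 ± 0.071 (SE, adjusted p = 0.0189 by edgeR). Transcripts annotated as non-coding, chiefly the retained-intron forms Rnf8-202 and Rnf8-207, made up 14.4% to 18.2% of the gene in Atr-Bax-Bak libraries against 1.13% to 10.4% in Bax-Bak controls, with no overlap. The controls were split by number series, with Rnf8-201 at 96.8% and 98.9% in the 2 of series 100019, which had the fewest counts and none of Rnf8-202, and at 89.6% and 91.9% in the 2 of series 1842, with Rnf8-202 at 5.21% and 5.35%. Against the controls of series 1842 alone the call of Rnf8-201 was lost (log2 fold change -0.26, adjusted p = 0.117 by edgeR). The transcripts annotated as non-coding made up 5.59% to 17.6% of Rnf8 in Atr-p53 against 5.20% to 10.54% in p53 libraries. Summed over protein-coding transcripts alone, Rnf8 passed the test without Bax and Bak at -0.23 ± 0.063 (SE, adjusted p = 0.0101 by edgeR), and at -0.22 (adjusted p = 0.0326) against the controls of series 1842 alone. Neither Rnf8-202 nor Rnf8-207 passed on its own (edgeR adjusted p = 0.390 and 0.306).

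Rnf168 divided its counts between a pair of protein-coding transcripts, in shares that varied between groups. The longer form Rnf168-203, of 4460 bases, held 41.8 ± 2.7% of the gene's counts in Atr-Bax-Bak and 41.0 ± 4.2% in Bax-Bak libraries (SD, n = 5 and 4). It held 27.7 ± 7.7% in Atr-p53 and 16.9 ± 0.84% in p53 libraries (SD, n = 4 and 3), with the lowest Atr-p53 library at 21.8% and the highest p53 control at 17.9%. Both Rnf168-201 and Rnf168-203 fell without Bax and Bak, by 0.59 and 0.55 on the log2 scale (edgeR adjusted p = 0.000197 and 0.0137). Without p53 neither passed, at -0.29 for Rnf168-201 (edgeR adjusted p = 0.787) and 0.64 for Rnf168-203 (edgeR adjusted p = 0.930).

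**Figure D3:**
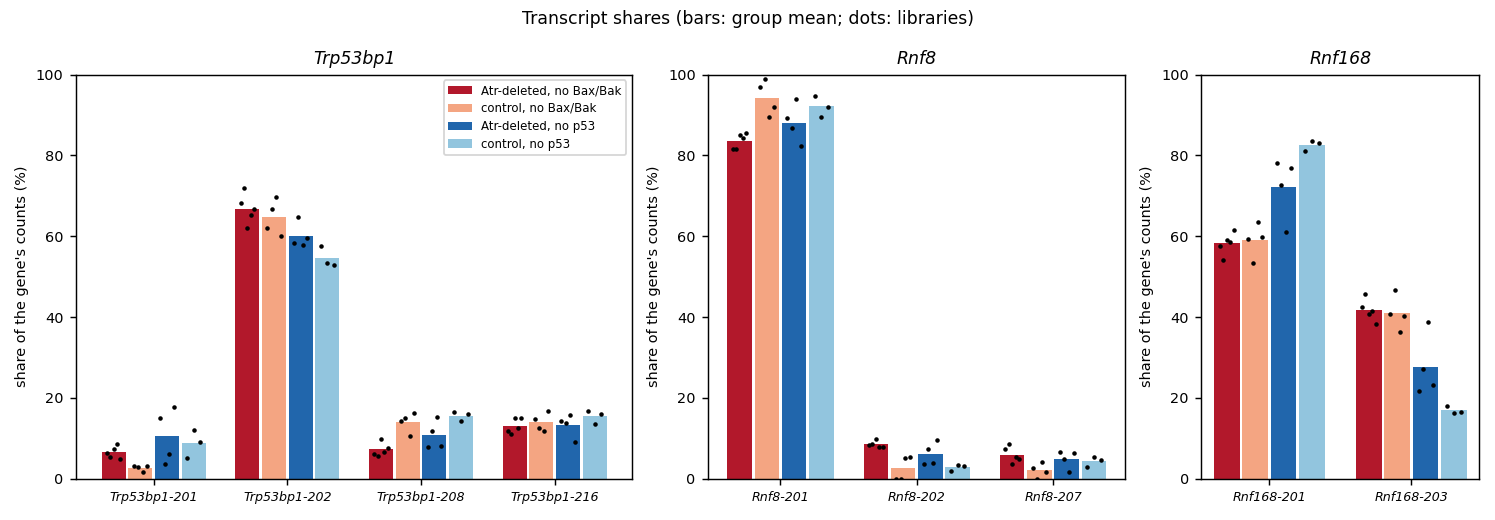
Share of each gene's estimated counts (percent, axis from 0) held by the transcripts of Trp53bp1, Rnf8 and Rnf168 that average at least 2%, as group means (bars) and libraries (dots). Rnf8-201 sits at 83.7% in Atr-Bax-Bak against 94.3% in Bax-Bak cerebella, and Rnf168-203 at 41.8%, 41.0%, 27.7% and 16.9% in the 4 groups from left to right.

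Promoter sequences of 4 genes that fell without Bax and Bak are shown, picked because each holds 1 of 2 motifs. Chek2 and Mdc1 match an E2F motif, and Atm and Rnf168 an ETS motif. Each is RefSeq's on GRCm38.p6, read 5′ to 3′ on the gene's strand from 250 bases before to 50 bases after the start, and capitals mark the E2F letters TTTNNCGC or the ETS letters CCGGAAG on either strand. The windows are chr9:53536622-53536921 (minus strand) for Atm, chr5:110839733-110840032 (plus) for Chek2, chr17:35841248-35841547 (plus) for Mdc1 and chr16:32277211-32277510 (plus) for Rnf168.
Atm: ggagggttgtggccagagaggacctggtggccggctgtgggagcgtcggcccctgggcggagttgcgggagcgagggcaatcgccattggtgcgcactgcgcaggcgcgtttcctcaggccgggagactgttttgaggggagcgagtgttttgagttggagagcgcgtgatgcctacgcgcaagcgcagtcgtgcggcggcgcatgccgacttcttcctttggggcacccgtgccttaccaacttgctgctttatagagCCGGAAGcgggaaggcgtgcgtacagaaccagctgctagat
Chek2: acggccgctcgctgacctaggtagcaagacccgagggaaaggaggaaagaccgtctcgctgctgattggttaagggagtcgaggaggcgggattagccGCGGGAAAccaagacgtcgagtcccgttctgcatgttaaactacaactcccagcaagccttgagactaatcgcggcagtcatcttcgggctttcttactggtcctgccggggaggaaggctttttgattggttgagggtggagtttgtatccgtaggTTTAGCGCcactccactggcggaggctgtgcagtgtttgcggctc
Mdc1: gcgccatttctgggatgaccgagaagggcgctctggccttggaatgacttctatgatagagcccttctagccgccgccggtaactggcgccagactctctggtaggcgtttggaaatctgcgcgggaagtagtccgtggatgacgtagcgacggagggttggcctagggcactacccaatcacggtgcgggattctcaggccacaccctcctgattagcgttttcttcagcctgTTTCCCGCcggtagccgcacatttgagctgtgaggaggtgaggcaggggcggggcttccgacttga
Rnf168: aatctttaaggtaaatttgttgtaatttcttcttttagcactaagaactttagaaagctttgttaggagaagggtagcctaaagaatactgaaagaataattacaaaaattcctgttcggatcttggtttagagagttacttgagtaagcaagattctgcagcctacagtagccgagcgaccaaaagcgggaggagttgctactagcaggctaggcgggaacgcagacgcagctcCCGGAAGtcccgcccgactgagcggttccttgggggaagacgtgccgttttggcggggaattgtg
Promoters were on hand for 6 of the 8 genes, without H2afx and Prkdc. Neither the E2F nor the ETS letters were matched in Trp53bp1, which also fell by a small margin, or in Rnf8. Counting from 1 at the start, the E2F letters lie at -152 to -145 and at 5 to 12 in Chek2 and at -16 to -9 in Mdc1, and are found in 5.17% of 32851 mouse promoters of this length. The ETS letters lie at 9 to 15 in Atm and at -15 to -9 in Rnf168, and are found in 8.86%. CCAAT was matched in Atm, Chek2, Mdc1 and Rnf8 (37.4% of promoters), the GC box GGGCGG in all of the 6 but Chek2 (35.7%), and the cell cycle homology element TTTGAA in Rnf8 alone (17.9%). In Rnf8 the last base of the CCAAT match is the first of TTTGAA, and no other matches overlap. No match to the p53 decamer element was found in the 6 windows, where 8.36% of promoters hold one. A match is a description of letters, not of binding.

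Atm, Chek2 and Prkdc each start back to back with another gene on the other strand, which allows a look at both sides of a shared promoter. Atm and Npat, a coactivator of histone genes, start 307 bases apart. Npat had 38.5, 38.3, 38.9, 40.6 and 38.4 CPM in Atr-Bax-Bak libraries, against 47.5, 47.9, 49.2 and 46.2 CPM in Bax-Bak controls, so both genes of the pair fell (Npat log2 fold change -0.27 ± 0.039 SE, adjusted p = 0.000224 by edgeR). Chek2 and Hscb, a co-chaperone of iron-sulphur cluster assembly, start 202 bases apart. Hscb had 3.06 to 4.02 CPM in Atr-Bax-Bak and 3.39 to 4.49 CPM in Bax-Bak libraries, with overlap (log2 fold change -0.11 ± 0.13 SE, adjusted p = 0.493 by edgeR).

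Prkdc and Mcm4, a subunit of the replicative helicase, start 466 bases apart. Mcm4 had 59.8, 63.4, 73.0, 73.4 and 64.9 CPM in Atr-Bax-Bak libraries, against 94.8, 103.9, 100.7 and 96.7 CPM in Bax-Bak controls, with a log2 fold change of -0.55 ± 0.064 (SE, adjusted p = 6.17e-05 by edgeR). Prkdc overlapped between the same groups. The ratio of Prkdc to Mcm4 CPM was 0.317 to 0.431 in Atr-Bax-Bak and 0.259 to 0.302 in Bax-Bak libraries, without overlap. It was 0.205 to 0.322 in Atr-p53 and 0.209 to 0.295 in p53 libraries, with overlap.

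**Figure D4:**
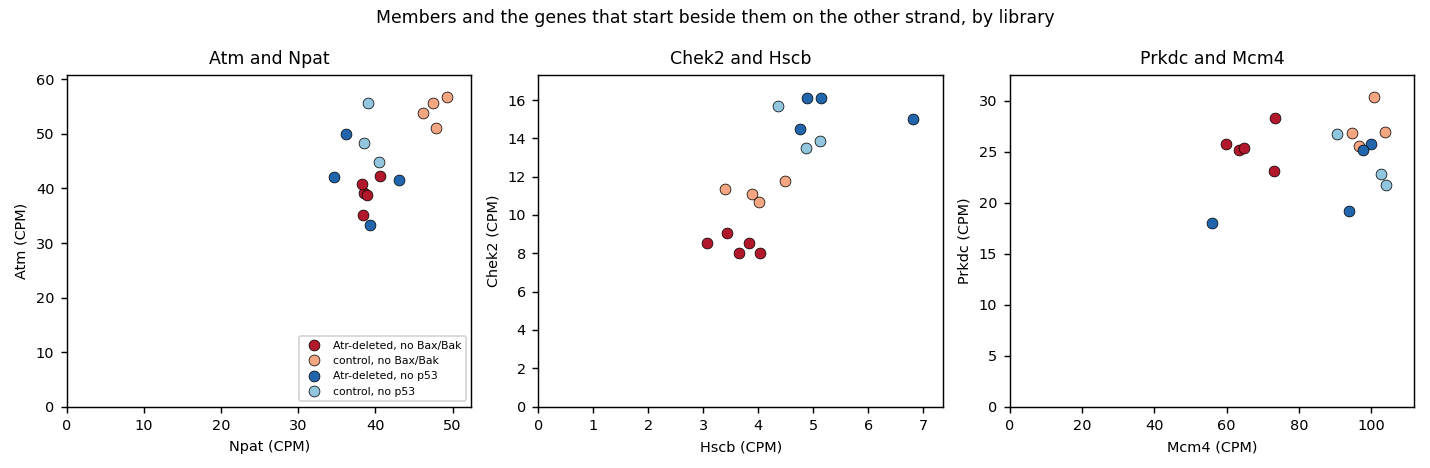
CPM of Atm, Chek2 and Prkdc (vertical axes) against CPM of the gene that starts beside each on the other strand (horizontal axes), 1 point per library, axes from 0. Red points (Atr-Bax-Bak) lie below and left of orange points (Bax-Bak controls) for Atm and Npat, and to the left at a like height for Prkdc and Mcm4.

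The wider pathway was read from 6 further lists of 63 genes, of which 62 were matched and tested. Without Bax and Bak, 22 of 62 were lower and 5 higher, against 22.0% and 22.5% of all genes, with a median log2 fold change of -0.088. Among break sensors and Atm activators 2 of 8 were lower, Mre11a at -0.41 ± 0.057 and Nbn at -0.32 ± 0.058, which encode the nuclease and the adaptor of the complex that activates Atm, and none was higher. Telo2 (0.12, edgeR adjusted p = 0.221) and Tti1 (-0.040, edgeR adjusted p = 0.517), which fold and stabilise Atm-family kinases, did not pass. Among non-homologous end joining genes 3 of 12 were lower and none higher: the Ku subunits Xrcc5 at -0.34 ± 0.047 and Xrcc6 at -0.19 ± 0.046, and Polq, the polymerase of the alternative end-joining route, at -0.35 ± 0.12 (log2 fold change ± SE throughout, edgeR). Ligase Lig4 did not pass (-0.15, edgeR adjusted p = 0.0726). In both of these lists the share of lower genes was near the 22.0% of all genes. Their median log2 fold changes were -0.014 for break sensors and Atm activators and -0.036 for end joining, against 0.042 over all genes.

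Among 53BP1 effectors and resection genes, 3 of 9 were lower and 1 higher, where lower calls covered 22.0% and higher calls 22.5% of all genes. Rbbp8, which encodes the resection factor CtIP, was at -0.79 ± 0.092, Dynll1, a 53BP1 partner that also serves dynein motors, at -0.60 ± 0.058, and Paxip1, the PTIP adaptor, at -0.34 ± 0.043 (log2 fold change ± SE). Ctc1, of the CST complex that fills in resected ends, was higher by 0.13 ± 0.036. In the BRCA1-A complex 3 of 7 were lower and none higher: Brca1 at -1.03 ± 0.079, its partner Bard1 at -0.57 ± 0.091 and the deubiquitinase Brcc3 at -0.38 ± 0.049. The scaffold subunit Babam1 did not pass (-0.10, edgeR adjusted p = 0.0621). Brca1 had 21.7 to 28.3 CPM in Atr-Bax-Bak libraries against 47.5 to 53.8 CPM in Bax-Bak controls.

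Among genes of ubiquitin signalling at breaks, 6 of 14 were lower and 1 higher, against 22.0% and 22.5% of all genes. Usp44, a deubiquitinase that opposes RNF168 in human cells, was at -1.33 ± 0.17, the Polycomb ligase Rnf2 at -0.48 ± 0.041, and Ube2n, the conjugating enzyme that works with Rnf8, at -0.35 ± 0.039 (log2 fold change ± SE). Rnf169, an Rnf168 paralogue that in human cells competes with 53BP1 for ubiquitinated chromatin, was the higher one, with 55.3 to 63.1 CPM in Atr-Bax-Bak against 30.3 to 35.8 CPM in Bax-Bak libraries (0.87 ± 0.065, edgeR adjusted p = 5.02e-06). Rnf169 had 17.0 to 18.9 CPM in Atr-p53 against 20.9 to 32.1 CPM in p53 libraries, a log2 fold change of -0.60 that did not pass (edgeR adjusted p = 0.352). The difference of these effects was 1.46 ± 0.15 (SE, adjusted p = 1.50e-05 by edgeR).

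Among Atm effectors and phosphatases 5 of 12 were lower and 3 higher, against 22.0% and 22.5% of all genes. Cdkn1a, the p53 target that encodes the cell cycle inhibitor p21, had 216.3 to 282.5 CPM in Atr-Bax-Bak against 47.7 to 61.3 CPM in Bax-Bak libraries (log2 fold change 2.26 ± 0.095 SE, adjusted p = 2.51e-07 by edgeR). It had 64.8 to 80.9 CPM in Atr-p53 against 71.5 to 80.6 CPM in p53 libraries (log2 fold change -0.0031, edgeR adjusted p = 0.996). Mdm2, the ligase that p53 induces to limit itself, was higher by 0.67 ± 0.051 without Bax and Bak. The cohesin subunit and Atm substrate Smc1a was lower at -0.42 ± 0.060, and Ppp4r2, of the phosphatase that removes the H2AX mark, at -0.34 ± 0.044. Without p53, none of the 62 genes of these lists was called by edgeR or limma-voom, 3 had an unadjusted p below 0.05 in edgeR, and DESeq2 called 1, Rnf169. Over all genes, 1142 of 17348 had such a p and 8 were called.

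The Atr-Chk1 partners, the sister pathway that answers to replication stress, had 10 of 14 genes lower and none higher without Bax and Bak. Over all genes, lower calls covered 22.0% and higher calls 22.5%. The partners' median log2 fold change was -0.42, the same to 2 decimals as that of the 8 genes of double-strand break signalling. Chek1, the Chk1 kinase, was at -0.93 ± 0.093, Clspn, which brings Chk1 to Atr, at -0.83 ± 0.072, Tipin, of the fork protection complex, at -0.68 ± 0.059, and Topbp1, the Atr activator, at -0.61 ± 0.046 (log2 fold change ± SE, edgeR). None of the 14 was called without p53 by edgeR, DESeq2 or limma-voom, and 2 had an unadjusted p below 0.05 in edgeR. No test of the difference between these gene sets was made.

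**Figure D5:**
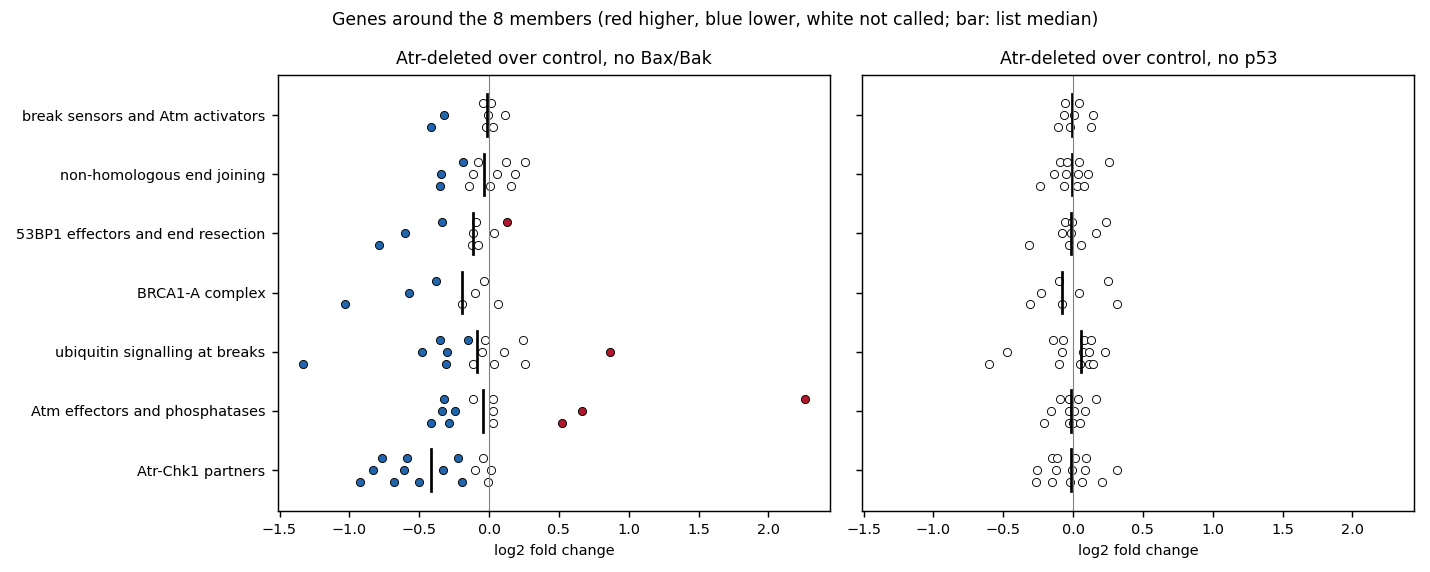
Log2 fold change of Atr-deleted over control cerebella for the genes of 6 further lists and of the Atr-Chk1 partners, without Bax and Bak (left) and without p53 (right). Each point is a gene, blue where lower and red where higher at an adjusted p below 0.05 in edgeR, white otherwise, and bars are list medians. Cdkn1a at 2.26 is the point farthest right, and the right panel holds white points alone.

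Markers of dividing cells moved with these results. All 15 S phase markers and all 15 markers of G2 and mitosis were lower without Bax and Bak, at median log2 fold changes of -0.84 and -0.91, and none was called without p53 by edgeR, DESeq2 or limma-voom (2 and 1 had an unadjusted p below 0.05 in edgeR). Without Bax and Bak, lower calls covered 22.0% of all genes tested and higher calls 22.5%. S phase markers summed to 785 to 970 CPM in Atr-Bax-Bak against 1466 to 1609 CPM in Bax-Bak libraries, and to 1130 to 1602 CPM in Atr-p53 against 1529 to 1698 CPM in p53 libraries. Markers of G2 and mitosis summed to 921 to 1156 CPM in Atr-Bax-Bak against 1805 to 2003 CPM in Bax-Bak libraries, and to 1307 to 1903 CPM in Atr-p53 against 1598 to 1725 CPM in p53 libraries. Granule progenitor markers were lower for 7 of 10 and higher for 2, and young granule neuron markers lower for 7 of 10 and higher for 1. Young granule neuron markers summed to 2897 to 3426 CPM in Atr-Bax-Bak against 3984 to 4975 CPM in Bax-Bak libraries. They summed to 3253 to 3765 CPM in Atr-p53 against 3808 to 3945 CPM in p53 libraries, also without overlap, and 4 of the 10 had an unadjusted p below 0.05 in edgeR without p53, as had 3 of the 10 granule progenitor markers, with none called by edgeR, DESeq2 or limma-voom.

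The medians of 6 lists of markers of cells outside the Cre lineage moved the other way without Bax and Bak, and those of meninges, choroid plexus and erythroid cells did not. Higher calls were 8 of 10 for astrocytes and Bergmann glia (sums 5479 to 6887 CPM in Atr-Bax-Bak against 4260 to 4614 CPM in Bax-Bak libraries), 6 of 8 for the oligodendrocyte lineage (1139 to 2444 CPM in Atr-Bax-Bak against 697 to 1191 CPM in Bax-Bak) and 8 of 10 for microglia (176 to 218 CPM in Atr-Bax-Bak against 123 to 165 CPM in Bax-Bak). They were 7 of 8 for inhibitory interneurons (652 to 821 CPM in Atr-Bax-Bak against 470 to 586 CPM in Bax-Bak), 7 of 8 for Purkinje cells (2436 to 3513 CPM in Atr-Bax-Bak against 1991 to 2293 CPM in Bax-Bak) and 4 of 8 for endothelial cells and pericytes (570 to 638 CPM in Atr-Bax-Bak against 456 to 584 CPM in Bax-Bak). Lower calls were 1 among the glial and 1 among the oligodendrocyte markers and none among the others. Over all genes tested in this comparison, higher calls covered 22.5% and lower calls 22.0%. Without p53, oligodendrocyte lineage markers summed to 430.6 to 499.0 CPM in Atr-p53 against 516.2 to 737.4 CPM in p53 libraries, without overlap. No marker of these 6 lists was called there by edgeR or limma-voom, but 4 of the 8 oligodendrocyte markers had an unadjusted p below 0.05 in edgeR, and DESeq2 called 3 of them lower, Pdgfra, Mbp and Mag, named here after their values were seen. For the astrocyte and microglia markers 1 each had an unadjusted p below 0.05 in edgeR, and none for the others. Sums of the other 5 lists overlapped between Atr-p53 and p53 libraries. No marker of meninges, choroid plexus or erythroid cells was called by edgeR (1 of meninges had an unadjusted p below 0.05, and DESeq2 called 1), although choroid plexus sums spanned 28.8 to 2721 CPM in Atr-Bax-Bak and 62.4 to 3722 CPM in Bax-Bak libraries. Without Bax and Bak, median log2 fold changes were -0.26 for meninges, -0.57 for choroid plexus and -0.20 for erythroid markers. Every marker of every list had counts in each of the 16 libraries. The part of these shifts in the fall of the 8 genes was not tested.

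The genes whose levels were most like each member's were sought by Pearson's r of log2 CPM over the 16 libraries, which share their 4 genotype groups, so the values describe and do not test. Mdc1 was most like Espl1 (r = 0.955), which encodes separase, Mki67 (r = 0.951), a marker of cycling cells, and Prpf3 (r = 0.941). Rnf168 was most like Skp2 (r = 0.971), an F-box protein of the cell cycle, Msl3 (r = 0.968) and Eri1 (r = 0.965). Chek2 was most like Snrpa1 (r = 0.984), Exosc2 (r = 0.981) and Phb2 (r = 0.981), and H2afx most like Ephb2 (r = 0.985), Efhd2 (r = 0.983) and U2af1 (r = 0.982). Atm was most like Zfp704 (r = 0.942), Smchd1 (r = 0.941) and Hivep1 (r = 0.937), Trp53bp1 most like Zfp318 (r = 0.872), Taf15 (r = 0.862) and Rbm6 (r = 0.848), and Rnf8 most like Smyd4 (r = 0.864), Hist1h3c (r = 0.853) and Hist1h4c (r = 0.851). Prkdc was most like Mycbp2 (r = 0.894), Macf1 (r = 0.888) and, above both, Herc2 (r = 0.900), a partner of RNF8 in human cells, which is in the list of ubiquitin signalling at breaks.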

How the data were processed

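RNA was extracted from P3 cerebella without meninges, poly-A selected and sequenced as stranded mRNA libraries in 2 lanes each, per the labels. The authors deposited estimated counts per transcript in 2 tables, 1 per death-blocking background. The submitters' processing notes name kallisto 0.42.4, edgeR, mm9 and GRCm38 without roles. For this work the lanes were added and the 92284 of 94080 transcripts found in the GENCODE M21 annotation of GRCm38 were summed to 31438 genes and rounded. Unmatched transcripts held 0.779% to 1.04% of the counts of the 16 libraries used. Atr-p53 replicate 3 held 13601 counts, with both lanes identical, and was left out. At the depth used, 1 count was at most 0.0233 CPM by total counts.

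Genes were tested with edgeR 4.0.16 in R 4.3.3 (TMM, filterByExpr, robust quasi-likelihood F test, Benjamini-Hochberg over all genes tested, threshold 0.05), within each background, and jointly for the difference of effects and for the controls. On simulated counts with 200 changed genes, the test without Bax and Bak recovered 75% of genes changed 1.5-fold and that without p53 40%. The test of the difference of effects recovered 33%, so most changes of that size were missed, and that of the controls 55%. False calls were 15 without Bax and Bak, 10 without p53, 4 for the difference of effects and 7 for the controls. The data without Bax and Bak gave 7744 calls among 17405 genes, far more than were simulated, so the 75% need not hold there. The difference of effects and the control comparison also gave more calls than were simulated. The 95% intervals given for log2 fold changes are normal approximations from the SE and are likely too narrow for so few libraries. DESeq2 1.42.0 and limma 3.58.1 were alternatives. TPM values, 31-base words shared between genes, start sites within 1000 bases and promoter motifs were computed with Python 3.11.15. The replicate numbers follow accession order and pair nothing.

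The 8 members and all lists were chosen with earlier results of these data known. Named genes are the 8 members, from each further list the 4 of smallest p without Bax and Bak, and for likeness the 3 of highest r per member. The start-site, transcript-share and motif comparisons were chosen after values were seen. Shld3 was not matched and is not analysed here.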

Additional observations from a re-analysis of the deposited data

Results flagged for a closer look

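The effect of Atr deletion differed between the Bax-Bak and p53 backgrounds, by edgeR's quasi-likelihood test of the difference with Benjamini-Hochberg adjustment over 18166 genes, for 4 of the 8 genes. The difference in log2 fold change, without Bax and Bak minus without p53, was -0.52 for Chek2, -0.51 for H2afx, -0.54 for Mdc1 and -0.43 for Rnf168. Each of the 4 was lower in 5 of 5 Atr-Bax-Bak libraries than in all 4 of their controls, and overlapped with the controls in Atr-p53 cerebella. Over all genes tested, the difference was more negative without Bax and Bak in 8.09%. Every Atr-Bax-Bak library lay below every control in 21.1% of genes, and every Atr-p53 library below every control in 4.62%. The backgrounds also differ in count table and in the number series of the sample names, which cannot be told apart from genotype. No library stood apart from its group by Dixon's criterion in the 24 groups of 4 or 5 libraries looked at, where chance gives about 1 in 20.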

How the results depend on the processing

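No paired analysis was possible because the replicate numbers follow accession order. The number series in the sample names, of unstated meaning, crosses the groups only without p53, through a single control of series 1843. A fit with the series as a term, chosen after seeing the data, called 2 genes there, with -0.011 for Chek2 and -0.071 for Trp53bp1; it and the fit within series 1843 compare the Atr-p53 libraries with that 1 control, which is assumed to vary like the others, and say little about stability. Atm, Chek2, H2afx, Mdc1 and Rnf168 stayed lower without Bax and Bak under the 22 alternatives fixed at the outset and the 4 added later (number series of the controls combined with protein-coding or main transcripts), except the main Chek2 transcript against controls of series 1842 (adjusted p = 0.0528 by edgeR). None of the 8 genes was called without p53 under 19 others. Trp53bp1 lost its call without Bax and Bak under the 4 added and 8 of the 22: besides the 3 libraries and the scaling named above, at a threshold of 0.01, in the joint fit (-0.15), against controls of number series 100019 alone (-0.13) and for its main transcript. The cause was not tested. The number of genes called without p53 was 8, and became 14 with no filter, 128 with DESeq2, 4 with limma-voom, 2 at a threshold of 0.01, 5 with protein-coding transcripts, 23 with the shallow library, 70 in the joint fit, 5 within number series 1843 and 5 for transcripts. It was 2 to 13 with a library left out (13 without p53 replicate 1, 2 without p53 replicate 2 or Atr-p53 replicate 2). The difference between effects had 2936 genes, 1175 at 0.01 and 1629 to 3561 with a library left out. Of the 8, 4 were called, 2 at 0.01. The control comparison had 3272 genes, 1291 at 0.01 and 1883 to 4698 with a library left out. Lower members there were 1, 2 with upper-quartile scaling or the control groups alone and 1 to 2 with a library left out, H2afx being the second. Values near 0 changed sign, none of them called. Without p53, Trp53bp1 was -0.0047 with median-of-ratios scaling, -0.0023 unfiltered, -0.0047 with DESeq2, -0.0052 with limma-voom, -0.0013 with the shallow library, -0.0098 jointly, -0.081 within series 1843 and -0.065 to 0.058 with a library left out. Chek2 was -0.021 within series 1843, Mdc1 -0.013 to 0.19 with a library left out and the main Rnf8 transcript -0.013. The difference for Prkdc was -0.0039 with median-of-ratios scaling, -0.035 unfiltered, -0.021 at a mean of 1 CPM, -0.0040 with DESeq2, -0.012 with protein-coding transcripts and -0.085 to 0.090 with a library left out. Depth limits Chek2 most among the 8 genes, at 474 to 1171 counts per library used.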

Other observations

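The shallow Atr-p53 library held 5 counts of Trp53bp1, 2 of Mdc1 and 1 of Rnf168, and 0 of Atm, Chek2, Prkdc, H2afx and Rnf8. The 5 counts correspond to 367.6 CPM by total counts, without the TMM scaling used for the other libraries. The exact 95% Poisson interval is 119.4 to 857.9 CPM, which covers counting error only and includes the levels of Trp53bp1 in all other libraries. A count of 0 there allows up to 220.6 CPM at 3 counts, or 271.2 CPM at the upper end of the same exact interval, both above the level of each undetected member in every p53 control, so at this depth the library could not show whether these genes differed.

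Atr-p53 replicate 2 had the lowest level of its group for Atm, Prkdc, H2afx, Mdc1 and Trp53bp1. It also had the lowest Mcm4, at 56.0 CPM against 93.7 to 99.99 CPM in the other Atr-p53 libraries.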
